A study of Mus musculus with 24 samples.

Results

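The miR-34 and miR-449 family was followed across 3 mouse mammary carcinoma lines with different metastatic behaviour. Its members were all mouse miRNA probes whose mature name starts with miR-34a, miR-34b, miR-34c or miR-449 and carries no star, which marks the less used strand of a hairpin in the older naming. This gave 7 of the 558 miRNA probes on the array: miR-34a, miR-34b-3p, miR-34b-5p, miR-34c, miR-449a, miR-449b and miR-449c. The rule reads the names and no measured value. MiRNA from 4T1 cells (labelled highly metastatic), 4TO7 cells (labelled systemically invasive) and 67NR cells (labelled nonmetastatic) was hybridised after 6 days of three-dimensional organotypic culture. Each line was kept in a rigid or a compliant microenvironment and given TGF-beta or, as the condition that the labels also call basal, a compound that blocks its type I receptor (the inhibitor below). There was thus no group without either agent, and a difference between these treatments sets added ligand against blocked receptor. The 12 groups had 2 arrays each, 24 arrays on 5 slides, and the labels do not say that the 2 arrays came from separate cultures, so the spread behind every p-value here is that between such arrays and may be technical. In such bulk cultures fewer cells that make a miRNA and less of it per cell cannot be told apart.

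The miR-34 family is best known as a set of direct targets of the tumour suppressor p53. MiR-34a comes from a transcript of its own, whereas miR-34b and miR-34c are cut from 1 shared transcript. The miR-449 miRNAs share the seed of miR-34, the stretch near the 5′ end that pairs with target mRNAs, and are known for high levels in epithelia with motile cilia. Known targets of the shared seed include cell cycle genes, the receptor Met and Snai1, a transcription factor of epithelial to mesenchymal transition, a programme that TGF-beta can start.

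The mature sequences are printed because the seed defines the family and because the letters after it are what a probe can use to tell members apart. RefSeq (GRCm38.p6) held 5 of the 7 members and the partner strand of miR-34c, listed on the array as miR-34c*. Bases 2 to 8, the seed, are in capitals, and each sequence runs 5′ to 3′.
miR-34a (chromosome 4, plus strand): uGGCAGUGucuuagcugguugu
miR-34b-5p (chromosome 9, minus strand): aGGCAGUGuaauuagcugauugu
miR-449a (chromosome 13, plus strand): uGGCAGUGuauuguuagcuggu
miR-449c (chromosome 13, plus strand): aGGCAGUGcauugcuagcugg
miR-34b-3p (chromosome 9, minus strand): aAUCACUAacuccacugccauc
miR-34c* (chromosome 9, minus strand): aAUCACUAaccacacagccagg

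The first 4 sequences share the seed GGCAGUG, which 4 of 1679 mature mouse miRNAs in the RefSeq table carry (0.238%). That table held no mature sequence for the members miR-34c and miR-449b, so the count leaves them out and is not the size of the seed family. MiR-34b-3p lies on the other arm of the miR-34b hairpin and has a different seed, AUCACUA, shared in that table by miR-34c* alone. Compared position by position from the 5′ end over 20 bases without gaps, miR-449a and miR-449c were equal at 17 positions. MiR-34a and miR-34b-5p were equal at 11 of the 20, and at 4 of the 12 positions after the first 8. This count understates their likeness, since both hold the stretch uuagcug after the seed, placed later in miR-34b-5p. A comparison without gaps does not see it. MiR-449a, equal to miR-34a at 13 of the 20 positions, holds this stretch too. In the RefSeq annotation Mir34a overlapped the span of no other gene. Mir34b and Mir34c overlapped the spans of Btg4 and Hoatz, and Mir449a, Mir449b and Mir449c overlapped that of Cdc20b. The overlap was read without regard to strand. The tables used here do not separate exons from introns, and the array files name no genome build.

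Of the 7 members, 6 were detected on all 24 arrays, with a deposited detection p of 0 on every array. A detection p under 0.05 means that the sample signal stood above that of background probes. MiR-34b-3p was detected on 0 of 24 arrays, with p-values from 0.258 to 0.570, so that it has no level here above background and was not tested. Its deposited log2 intensity spanned 5.77 to 6.77. MiR-34c*, which shares the seed of miR-34b-3p and is no member, was detected on 24 arrays at a p under 0.05 but on 10 at a p under 0.01. No member had a fail code, and the deposited error of single intensities was 1.68% to 11.6% for the 6 detected members. The intensity of a probe is a ratio to a reference in the second dye, so the level of one probe is not set against that of another.

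Across the series 313 to 357 probes were detected per array and 284 on all arrays, and the r between both arrays of 1 group was 0.996 to 0.999. Array medians before normalization were 7.29 to 7.87 on the log2 scale, and 365 probes entered the tests. Of 6 miRNAs taken as epithelial markers, 5 (miR-200a, miR-200b, miR-200c, miR-141 and miR-429) were detected on all 8 arrays of 4T1, and 1 (miR-141) on all 8 arrays of 4TO7 and of 67NR. Their summed deposited intensity was 1419.6 to 2128 in 4T1, 377 to 504 in 4TO7 and 339.8 to 469 in 67NR, and their part in the differences between lines was not tested. These sums add ratios of several probes without normalization and include undetected probes. Of the 6, 4 were detected on no array of 67NR and 3 on none of 4TO7, so the sums of these lines hold much background. MiR-205, of the same list, was detected on no array of 4T1 or 67NR. Of the 5 mesenchymal markers 3 were detected on all 8 arrays of 4T1 and of 4TO7 and 4 on those of 67NR. Their sums, made in the same way with undetected probes included, were 6286 to 10139 in 4T1, 7078 to 10580.1 in 4TO7 and 13072 to 22512 in 67NR. Of 6 blood markers only miR-451 was detected in each line, while miR-144, miR-142-3p, miR-142-5p, miR-223 and miR-150 were detected on no array. Of the muscle markers on the array, miR-206 was detected in 67NR and none in 4T1 or 4TO7, and of 2 neural markers miR-9 was detected in all 3 lines and miR-124 in none.

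**Figure D1:**
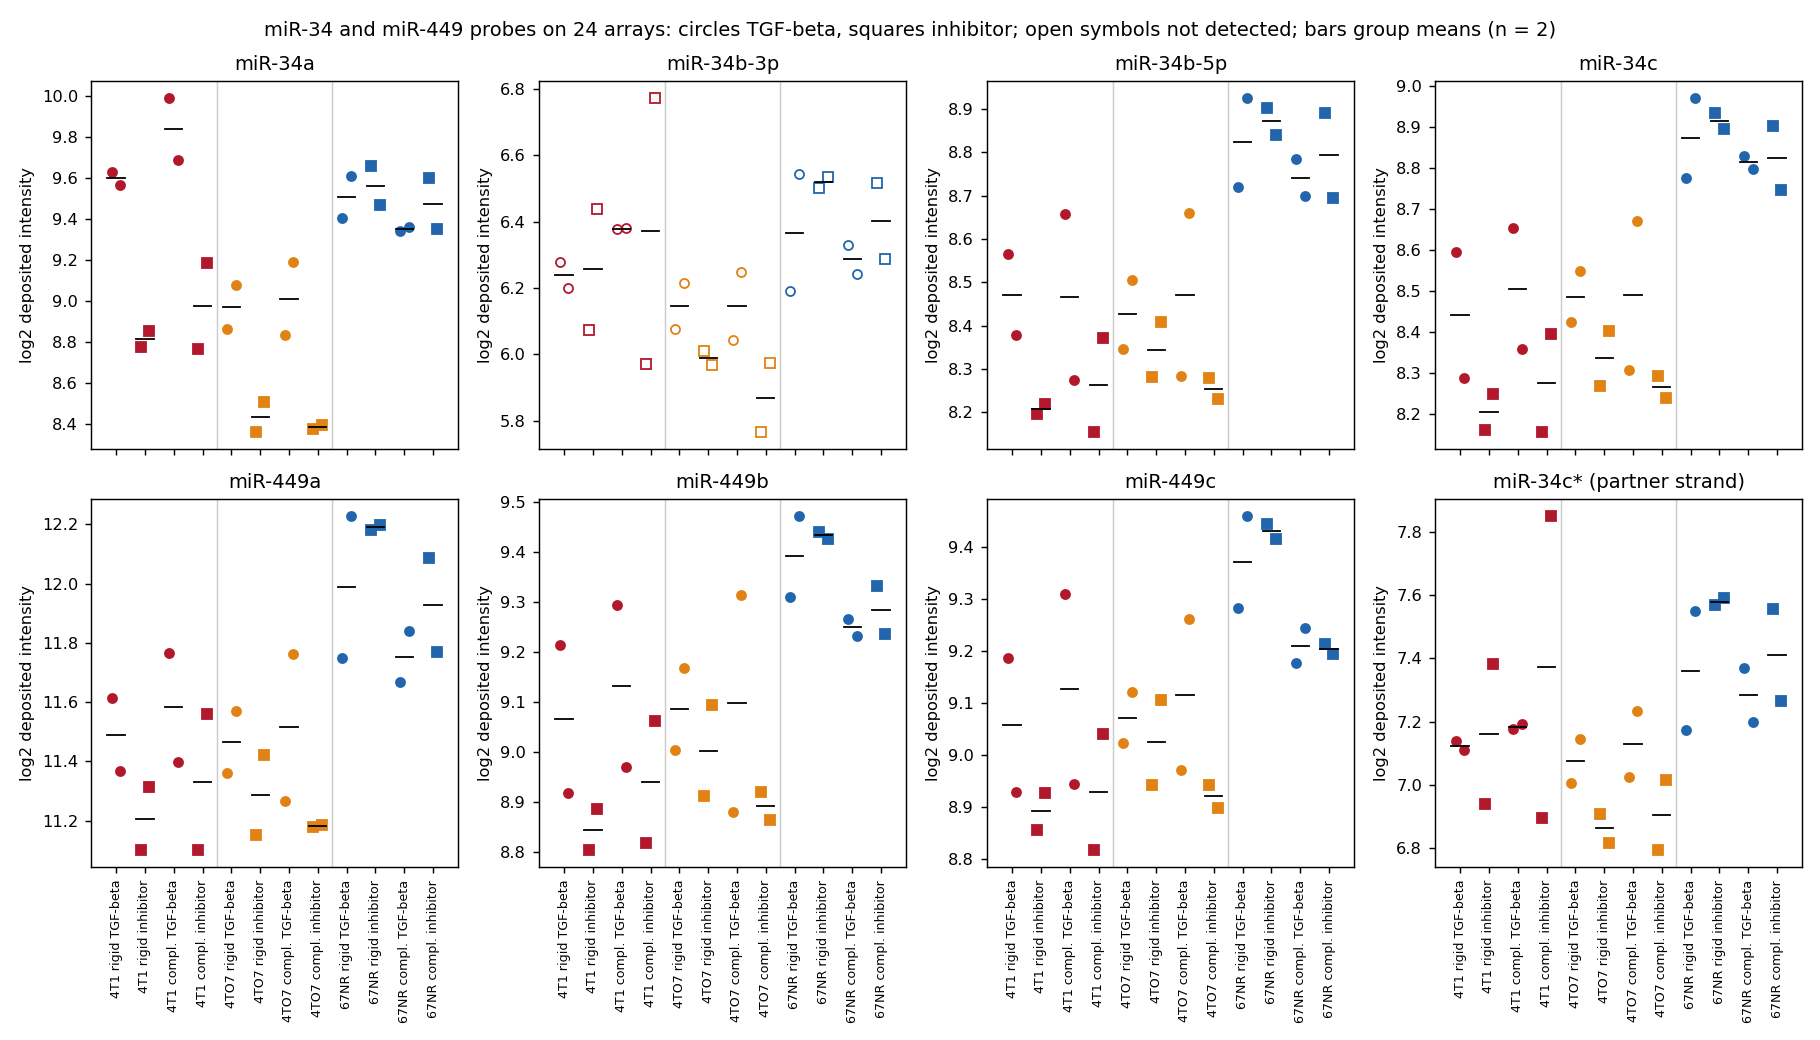
Deposited log2 relative intensity (vertical axis, a separate scale per panel) of the 7 members and of miR-34c* in the 12 groups, as 1 symbol per array; circles are TGF-beta, squares the inhibitor, open symbols arrays without detection and bars the mean of 2 arrays. MiR-34a is higher with TGF-beta in 4T1 and 4TO7 and not separated in 67NR, and every array of miR-34b-3p is open.

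In 4T1, in 4TO7 and over all lines miR-34a had the largest difference between TGF-beta and inhibitor of the 6 tested members, whereas in 67NR it had the smallest. Relative to the inhibitor, TGF-beta cultures had 1.55-fold more in 4T1 cells and 1.29-fold more in 4TO7 cells, while in 67NR cells the difference of 1.05-fold did not pass the test. The other 5 tested members stayed within 1.12-fold in every line. None of these 5 passed the test in any single line, but with the set number as a replicate block miR-34b-5p passed in 4T1 (0.12, limma adjusted p = 0.025) and in 67NR (0.15, adjusted p = 0.015), and miR-34c in 67NR (0.15, adjusted p = 0.019).

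In 4T1 cells the deposited log2 intensity of miR-34a with TGF-beta was 9.63 and 9.57 in the rigid and 9.99 and 9.69 in the compliant microenvironment, against 8.78 and 8.85 in the rigid and 8.76 and 9.19 in the compliant microenvironment with the inhibitor. The 4 arrays with TGF-beta all lay above the 4 with the inhibitor. In 4TO7 cells the values were 8.86 and 9.08 in rigid and 8.83 and 9.19 in compliant culture with TGF-beta, against 8.36 and 8.51 in rigid and 8.38 and 8.39 in compliant culture with the inhibitor. Here too the groups did not overlap. In 67NR cells they were 9.40 and 9.61 in rigid and 9.34 and 9.36 in compliant culture with TGF-beta, against 9.66 and 9.47 in rigid and 9.60 and 9.35 in compliant culture with the inhibitor, and the groups overlapped.

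After quantile normalization, which gives every array the same distribution of values, miR-34a in 4T1 averaged 9.59 ± 0.12 with TGF-beta and 8.95 ± 0.06 with the inhibitor (SD, n = 4 each, both microenvironments pooled). The log2 difference was 0.63 ± 0.05 (SE), with an adjusted p of 6.1e-08 by limma. This was the only tested member called in 4T1, where 12.6% of the 365 tested probes were higher and 31.8% were called in either direction. In 4TO7 miR-34a averaged 8.97 ± 0.06 with TGF-beta and 8.61 ± 0.04 with the inhibitor, a difference of 0.36 ± 0.05 (limma adjusted p = 4.8e-05), and it was again the only tested member called, against 9.59% of probes higher and 21.4% called in either direction. In 67NR it averaged 9.54 ± 0.05 with TGF-beta and 9.47 ± 0.07 with the inhibitor, a difference of 0.07 ± 0.05 (limma adjusted p = 0.44). No member was called in 67NR, where limma called 11.0% of probes in either direction. Of the 6 tested members 2, miR-34b-5p and miR-34c, had an unadjusted p under 0.05, as did 97 of the 365 tested probes. The sign of the 67NR difference of miR-34a depended on the scaling: without normalization between arrays it was -0.09, when the median of all tested probes was -0.15.

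The response of miR-34a held its direction in both microenvironments of the responding lines. The log2 difference was 0.60 in rigid and 0.67 in compliant culture of 4T1, and 0.39 in rigid and 0.34 in compliant culture of 4TO7. In 67NR it was 0.09 in rigid and 0.05 in compliant culture. The test of whether the response differed between rigid and compliant culture gave 0.01 ± 0.06 over the 3 lines (limma adjusted p = 0.98), and in that comparison limma called 0 of 365 probes, or 0.00%, while 22 had an unadjusted p under 0.05. None of those 22 was a member.

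The differences between lines in the response of miR-34a were tested as such. The response was larger by 0.56 ± 0.07 in 4T1 than in 67NR (limma adjusted p = 5.1e-05), in a comparison where 6.85% of probes were called in either direction. It was larger by 0.30 ± 0.07 in 4TO7 than in 67NR (limma adjusted p = 0.015), where 11.5% of probes were called. Between 4T1 and 4TO7 it differed by 0.27 ± 0.07 (limma adjusted p = 0.023), where 11.2% of probes were called. This last call was lost with the slide as a block (adjusted p = 0.088), without normalization (0.99) and on leaving out any 1 of 4 arrays, rigid inhibitor replicate 2 or compliant TGF-beta replicate 1 of 4T1, or rigid inhibitor replicate 2 or compliant inhibitor replicate 1 of 4TO7. None of the other 5 tested members had a called difference of response between lines.

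The slides held several groups, so the treatments could be set against each other on 1 slide in some cases. Within slides miR-34a was higher with TGF-beta by 0.39 in compliant and 0.40 in rigid culture of 4TO7. In 67NR the corresponding differences were 0.04 in compliant and -0.04 in rigid culture. No slide held both treatments of 4T1 in 1 microenvironment. Slide 3 held 1 rigid and 2 compliant TGF-beta arrays of 4T1 and no inhibitor array of that line, so treatment and slide largely went together in 4T1. For that line only the fit with slide as a term bears on the slide, and this fit draws on the other lines too. The 4T1 call of miR-34a was kept in it, but the layout leaves treatment and slide poorly separated there.

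**Figure D2:**
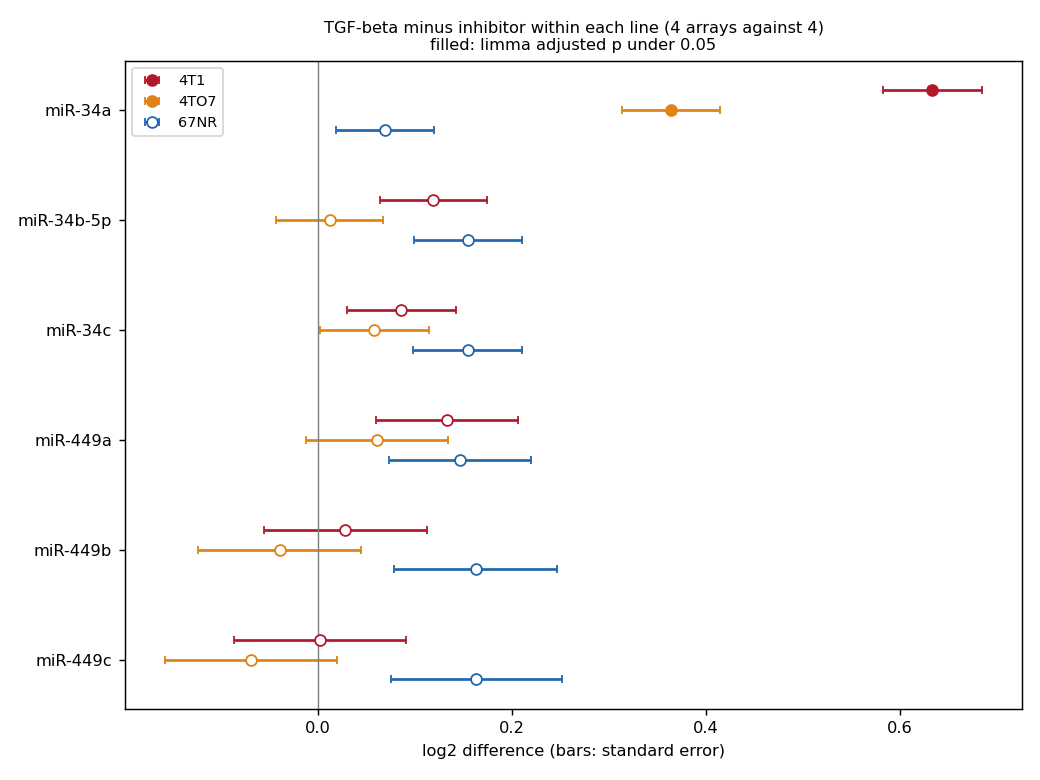
Log2 difference between TGF-beta and inhibitor (horizontal axis) for the 6 tested members in 4T1, 4TO7 and 67NR; bars are standard errors, and filled symbols passed limma's adjusted p under 0.05. MiR-34a in 4T1 (0.63) and 4TO7 (0.36) stands apart from the other members, whose differences lie between -0.07 and 0.16.

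Over all 3 lines together 4 of the 6 tested members were higher with TGF-beta and none lower, where 21.4% of all tested probes were higher and 18.1% lower. Those called were miR-34a (0.36 ± 0.03, limma adjusted p = 5.6e-08), miR-34b-5p (0.10 ± 0.03, adjusted p = 0.027), miR-34c (0.10 ± 0.03, adjusted p = 0.023) and miR-449a (0.11 ± 0.04, adjusted p = 0.043). MiR-449b and miR-449c differed by 0.05 ± 0.05 and 0.03 ± 0.05 and did not pass. The median difference of the 6 members was 0.10, beside 0.01 for all tested probes. The 3 small calls were fragile: those of miR-34b-5p, miR-34c and miR-449a were each lost under at least 3 of the other ways of processing, with values between 0.04 and 0.14, and the number of members called went down to 1 without 4T1 compliant inhibitor replicate 2. Of all calls in this comparison 54.2% were higher, a share that was 33.9% to 68.8% under the other scalings.

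MiR-34b-5p and miR-34c, the pair from 1 transcript, can be read line by line. In 67NR their differences were 0.15 ± 0.06 each, with limma adjusted p-values of 0.082 and 0.086. Those of the 3 miR-449 members in 67NR were 0.15 to 0.16, with adjusted p-values from 0.20 to 0.24. Without normalization all 6 tested members had differences below 0 in 67NR, from -0.19 to -0.03, and miR-449a was also below 0, at -0.06, with median scaling over all probes. In 4T1 the differences of the 5 members other than miR-34a were 0.00 to 0.13, and in 4TO7 they were -0.07 to 0.06. The normalized values of miR-34c*, the partner strand of miR-34c, in 4T1 were 6.92 to 7.06 on the 4 arrays with TGF-beta and 7.02 to 7.52 on the 4 with the inhibitor, which overlapped. Its difference was -0.23 ± 0.08 (limma adjusted p = 0.044), a call in the lower direction that 19.2% of probes shared, and it was negative in each of the 4 comparisons of 1 set and microenvironment, from -0.46 to -0.08. Without compliant inhibitor replicate 2 of 4T1, the highest array, it was -0.11 (adjusted p = 0.23). The call was also lost without normalization (adjusted p = 0.46), with no detection filter (0.056), with the slide as a block (0.16) and without any 1 of many other arrays, and it was kept with the set as a replicate block (0.016).

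In 4T1 cells all 6 tested members were lower than in 67NR cells, and in 4TO7 cells all 6 were lower than in 67NR. Most probes moved the same way, 58.9% lower in 4T1 and 57.0% lower in 4TO7, and the median of all tested probes was -0.22 and -0.15 in these comparisons, beside medians of -0.41 and -0.31 for the 6 members. The normalized values are therefore read against that shift.

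The deposited log2 intensity of miR-34c ran from 8.16 over a median of 8.32 to 8.65 on the 8 arrays of 4T1. On the 8 arrays of 4TO7 it ran from 8.24 over 8.36 to 8.67, and on those of 67NR from 8.75 over 8.86 to 8.97. The 67NR arrays all lay above those of the other lines, which overlapped each other. MiR-34b-5p ran from 8.15 over 8.32 to 8.66 in 4T1, from 8.23 over 8.32 to 8.66 in 4TO7 and from 8.69 over 8.81 to 8.93 in 67NR, again with 67NR apart. MiR-449a ran from 11.10 over 11.38 to 11.77 in 4T1, from 11.15 over 11.31 to 11.76 in 4TO7 and from 11.67 over 11.96 to 12.23 in 67NR, where the lowest array of 67NR lay among the highest of the other lines.

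In 4T1 against 67NR the normalized difference was -0.59 ± 0.04 for miR-34c (limma adjusted p = 5.1e-10) and -0.54 ± 0.04 for miR-34b-5p (adjusted p = 1.3e-09). The miR-449 members differed by -0.47 ± 0.05 (miR-449a), -0.35 ± 0.06 (miR-449b) and -0.29 ± 0.06 (miR-449c), with adjusted p-values from 3.0e-07 to 0.00034. MiR-34a was the member nearest to the shift of all probes, at -0.24 ± 0.04 (limma adjusted p = 9.4e-06), and its call was lost without normalization (-0.17, adjusted p = 0.070). The other 5 calls were kept under every alternative and with any 1 array left out.

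In 4TO7 against 67NR the order was different. MiR-34a had the largest difference of the members, -0.72 ± 0.04 (limma adjusted p = 2.0e-11). MiR-449a, miR-34c and miR-34b-5p followed at -0.34 ± 0.05, -0.32 ± 0.04 and -0.29 ± 0.04. MiR-449b and miR-449c, at -0.21 ± 0.06 and -0.15 ± 0.06, were the nearest to the shift of all probes, and their calls were lost with median scaling over the probes detected on all arrays. The call of miR-449c was also lost on the authors' deposited value table, with the slide as a block and without any 1 of 9 arrays.

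Between 4T1 and 4TO7, where 23.0% of probes were higher and 40.0% lower and the median of all probes was -0.07, miR-34a and the other members went opposite ways. MiR-34a was higher in 4T1 by 0.48 ± 0.04 (limma adjusted p = 1.1e-08), with 8 normalized values from 8.86 to 9.77 in 4T1 and from 8.58 to 9.02 in 4TO7. MiR-34c and miR-34b-5p were lower in 4T1 by -0.27 ± 0.04 and -0.25 ± 0.04 (limma adjusted p = 2.5e-05 and 4.1e-05). MiR-449c and miR-449a were lower by -0.15 ± 0.06 and -0.13 ± 0.05, with adjusted p-values of 0.0496 and 0.040, and miR-449b did not pass at -0.13 ± 0.06 (adjusted p = 0.065). Without normalization, where the median of all probes was 0.12, none of the 5 passed and that of miR-449a turned to 0.04, while miR-34a kept its call.

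**Figure D3:**
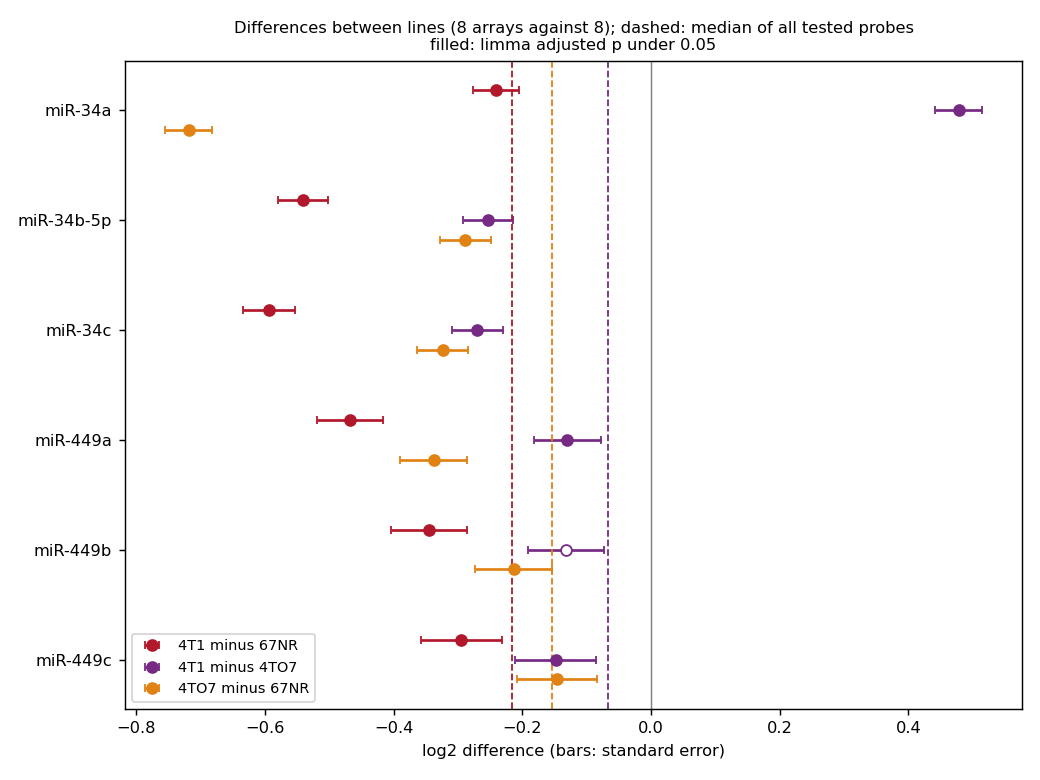
Log2 differences between lines (horizontal axis) for the 6 tested members, with standard errors as bars, filled symbols for a limma adjusted p under 0.05 and dashed lines at the median of the 365 tested probes in the same comparison. MiR-34a is the member lowest in 4TO7 against 67NR (-0.72) and the only one higher in 4T1 than in 4TO7 (0.48).

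The difference of miR-34a between 4T1 and 67NR was not the same in both treatments. With TGF-beta the normalized level was 9.59 ± 0.12 in 4T1 and 9.54 ± 0.05 in 67NR (SD, n = 4 each). With the inhibitor it was 8.95 ± 0.06 in 4T1 and 9.47 ± 0.07 in 67NR. The test of this change in difference is that of the response itself, 0.56 ± 0.07. In 4TO7 the level stayed below that of 67NR in both treatments, at 8.97 ± 0.06 with TGF-beta and 8.61 ± 0.04 with the inhibitor.

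Ordered by the normalized mean of each group, miR-34a was highest in 4T1 compliant TGF-beta at 9.66 ± 0.15 (SD, n = 2), then in 67NR compliant TGF-beta at 9.55 ± 0.02, 67NR rigid TGF-beta at 9.54 ± 0.08, 4T1 rigid TGF-beta at 9.51 ± 0.01, 67NR compliant inhibitor at 9.50 ± 0.02 and 67NR rigid inhibitor at 9.45 ± 0.11. Among these 6 groups the arrays of neighbouring groups overlapped. A gap followed, and then came 4TO7 rigid TGF-beta at 9.02 ± 0.01, 4T1 compliant inhibitor at 8.99 ± 0.01, 4TO7 compliant TGF-beta at 8.93 ± 0.06 and 4T1 rigid inhibitor at 8.91 ± 0.07, of which the last pair overlapped. The 4TO7 groups with the inhibitor were lowest, at 8.63 ± 0.06 in rigid and 8.59 ± 0.01 in compliant culture, and overlapped. MiR-34a spanned 1.07 between its highest and lowest group mean.

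MiR-34b-5p and miR-34c kept to an order by line: the 4 groups of 67NR stood first, those of 4TO7 next and those of 4T1 last, with spans of 0.73 and 0.76. Of the 11 pairs of neighbouring groups, the arrays overlapped in 8 for each of them, and in both the gap between the lowest 67NR group and the highest 4TO7 group was free of arrays. MiR-449a also had the 4 groups of 67NR first with a gap after them, while its 4TO7 and 4T1 groups were mixed. MiR-449b and miR-449c kept to no strict order by line, spanned 0.46 and 0.42, and 9 and 11 of their 11 neighbouring pairs overlapped.

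Culture in a rigid against a compliant microenvironment gave no called difference for any member. Limma called 0 of the 6 over all lines, where 21.9% of probes were called in either direction, and 0 within 4T1 (7.40% of probes), 4TO7 (2.74%) and 67NR (11.0%). An unadjusted p under 0.05 was found for 83 of the 365 tested probes in 4T1, 62 in 4TO7, 87 in 67NR and 122 over all lines. The counts of members at this threshold were 1 in 4T1 and 0 in the other 3 comparisons. That member was miR-34a, whose normalized values in 4T1 were 9.51 and 9.50 in rigid and 9.77 and 9.56 in compliant culture with TGF-beta, and 8.96 and 8.86 in rigid culture, against a compliant mean of 8.99 ± 0.01 (SD, n = 2), with the inhibitor. Each rigid value lay below both compliant ones of the same treatment, a difference of -0.12 ± 0.05 with a limma adjusted p of 0.17.

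The differences of the 6 members ran from -0.12 to 0.11 in 4T1, from 0.06 to 0.15 in 4TO7, from -0.05 to 0.05 in 67NR and from -0.03 to 0.08 over all lines, which bounds what these arrays show but does not show that the microenvironments were alike. Within slides the rigid minus compliant difference of miR-34a was -0.15 in 4T1 with TGF-beta, -0.14 in 4T1 with the inhibitor and 0.14 in 4TO7 with TGF-beta. No difference of the rigid effect between lines was called for a member by limma, where 5.48% (4T1 minus 67NR), 1.64% (4T1 minus 4TO7) and 6.85% (4TO7 minus 67NR) of probes were. For miR-34a the rigid effect in 4T1 minus that in 4TO7 was -0.18, with a limma adjusted p of 0.49. It was the 1 member with an unadjusted p under 0.05 in these comparisons. Of the 365 tested probes 35 had such a p in 4T1 minus 4TO7, 72 in 4T1 minus 67NR and 57 in 4TO7 minus 67NR.

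The members varied together except for miR-34a. Over the 12 group means of normalized intensity the Pearson correlations among miR-34b-5p, miR-34c, miR-449a, miR-449b and miR-449c were 0.90 to 0.99, and those of miR-34a with the 5 were 0.20 to 0.54. These are descriptions, since the groups share lines, slides and the normalization. Part of the covariation was seen between replicate arrays too: the differences between set 1 and set 2 of the 12 groups correlated at 0.37 to 0.90 among the 5 members, and at 0.38 to 0.82 between miR-34a and the 5. The 2 members of 1 transcript, miR-34b-5p and miR-34c, had the highest correlation within the family over group means, 0.99. Probes outside the family also reached 0.99 with each of them, so this value is not particular to a shared transcript.

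**Figure D4:**
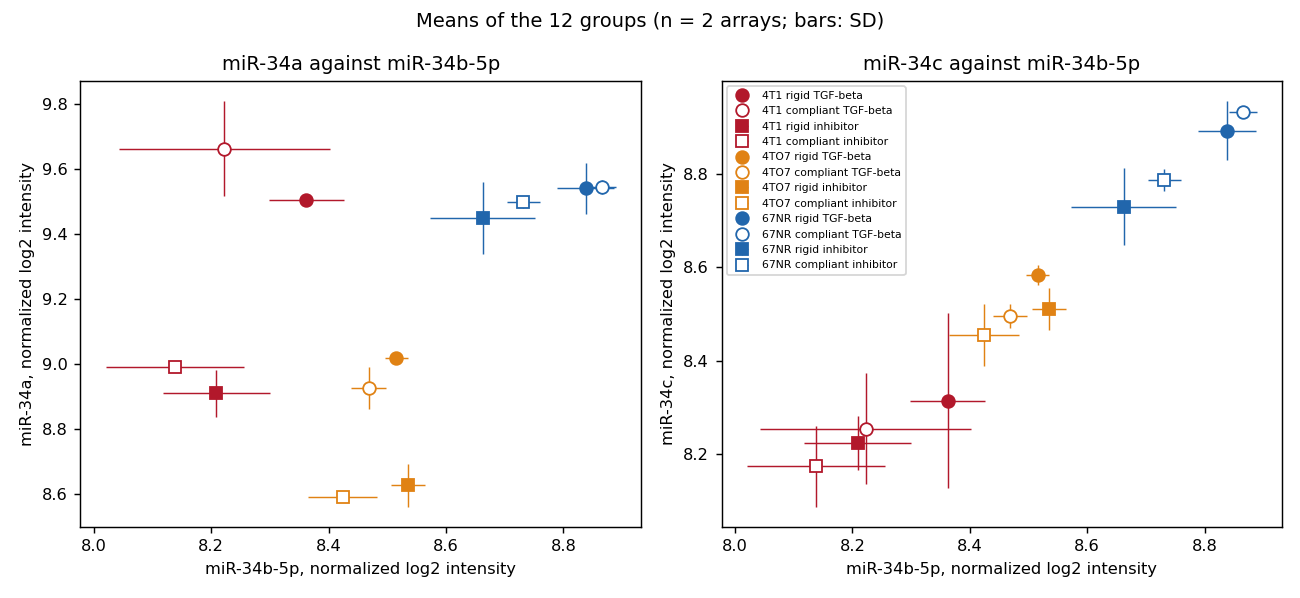
Normalized log2 intensity of miR-34a (left, vertical axis) and of miR-34c (right, vertical axis) against that of miR-34b-5p (horizontal axis) as means of the 12 groups, with SD of 2 arrays as bars; colours are lines, circles TGF-beta, squares inhibitor, filled rigid and open compliant. MiR-34c follows miR-34b-5p along a line (r = 0.99) and miR-34a does not (r = 0.36).

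Many other probes had the same pattern as the 5. Of the 355 tested probes outside the family, 100 correlated with miR-34c above 0.9 over the 12 group means, 94 with miR-449a, 91 with miR-34b-5p, 54 with miR-449b and 16 with miR-449c, but 2 with miR-34a. The nearest to miR-34a were miR-22 (r = 0.95), its partner strand miR-22* (0.93) and miR-762 (0.89). The nearest to miR-34b-5p were miR-878-3p, miR-29b* and miR-302c* (0.99 each), and those to miR-34c were miR-374*, miR-539 and miR-29b* (0.99 each). MiR-298 (0.99), miR-680 (0.98) and miR-666-5p (0.98) were nearest to miR-449a. MiR-127* was among the 3 nearest of both miR-449b (0.96, with miR-299 and miR-27b* at 0.95 each) and miR-449c (0.94, with miR-453 at 0.96 and miR-133a* at 0.93).

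A list of 11 miRNAs reported elsewhere as raised by p53, or processed more in its presence, was read beside the family. Of these 9 were tested, 1 of them on a probe that names both miR-103 and miR-107. With TGF-beta over all lines 1 was higher and 2 lower, where 21.4% of all tested probes were higher and 18.1% lower, and the median difference was -0.0016, beside 0.01 for all probes. MiR-15a was lower by -0.23 ± 0.04 (limma adjusted p = 0.00021) and miR-200c higher by 0.08 ± 0.03 (adjusted p = 0.036), though miR-200c was detected in 4T1 alone. MiR-205, 1 of the 2 lower, was detected on only 2 arrays, both of 4TO7. It passed the detection filter through these arrays alone, so no size is given and its call is not read as a result. MiR-145, next by p, was at 0.07 ± 0.03 (adjusted p = 0.084).

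Within 4T1, where miR-34a was highest relative to the inhibitor, miR-15a and its cluster partner miR-16 were lower by -0.43 ± 0.07 and -0.42 ± 0.09 (limma adjusted p = 0.00015 and 0.0014), and miR-200c was higher by 0.22 ± 0.05 (adjusted p = 0.0047), where 31.8% of probes were called. In 4TO7 miR-16 was higher by 0.41 ± 0.09 (adjusted p = 0.0019), where 21.4% were called. MiR-205 was called lower there too. It passed the detection filter only through its 2 detected arrays of 4TO7, so that call is not read as a result. In 67NR 1 of the 9 was called, miR-16, lower by -0.28 ± 0.09 (adjusted p = 0.049), where 11.0% of probes were called.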

How the data were processed

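MicroRNA was measured on 24 2-dye arrays, 1 per sample. Per the file headers and the column notes deposited with them, the authors made each intensity as a relative intensity, the sample dye over the reference dye after background subtraction and labelling correction, with an error on the same scale and a detection p-value from background probes. Scanner, software and versions are not given in the sources used here. A second deposited table gives log2 values for 338 probes, each equal to the log2 of the deposited intensity plus 1 constant per array (largest deviation 5.9e-06). How the authors chose these constants is unknown here.

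Here the 558 miRNA probes were taken on the log2 scale, and limma 3.58.1 (R 4.3.3) was used to quantile normalize the arrays. Probes detected (p under 0.05) on both arrays of 1 or more groups and with the fail code on fewer than 12 arrays were kept, 365 in all. A linear model of 12 group means (12 residual degrees of freedom) was fitted with lmFit and eBayes (trend on). The tests were two-sided, with Benjamini-Hochberg adjustment across the 365 probes in each comparison and a threshold of 0.05. The code was tested on simulated data. Arrays carry no counts, so their number and the signal over background limit the precision. The slide of each array was read from the array barcode that names its deposited file.

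All members were named, with the 3 nearest probes outside the family for each detected one by Pearson correlation, and at most 4 of the p53-linked list by p for TGF-beta. Members, lists and comparisons were chosen with earlier results of these data known. Alternatives were median scaling (all probes, or those detected on all arrays), no normalization, the authors' table, other detection filters, slide or set as a block, within-slide values and leaving out each array. The same alternatives for the partner strand miR-34c* were chosen after seeing the data. Spike-in probes were left out.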

Additional observations from a re-analysis of the deposited data

Results flagged for a closer look

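The response of miR-34a to TGF-beta differed between lines in 3 tested comparisons of the response itself. Its log2 difference between TGF-beta and the inhibitor was larger in 4T1 than in 67NR by 0.56, with all 4 TGF-beta arrays above all 4 inhibitor arrays in 4T1 and overlapping arrays in 67NR. It was larger in 4TO7 than in 67NR by 0.30, and larger in 4T1 than in 4TO7 by 0.27. The first 2 kept their limma call under every alternative, with adjusted p-values of at most 0.0022 and 0.046. No other member had a called difference of this kind.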

How the results depend on the processing

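Of 26 calls of a member in the comparisons, 15 were kept under every alternative fit and with any 1 array left out, among them miR-34a with TGF-beta in 4T1, in 4TO7 and over all lines. With any 1 array left out 19 were kept. Only 1 call turned its sign, miR-449a in 4T1 against 4TO7 without normalization (0.0407); the cause was not tested, and the median of all probes went to 0.12 there, against -0.07. Over all lines the count of members higher with TGF-beta was 4, and it was 1 with median scaling over all probes, 2 over probes detected on all arrays, 1 without normalization, 2 with the slide as a block and 1 to 4 with 1 array left out. The arrays that moved it were 4T1 compliant inhibitor replicate 2 (1) and, at 2 each, 4T1 rigid TGF-beta replicate 1, 4TO7 compliant inhibitor replicate 2 and 67NR rigid inhibitor replicate 2. In 67NR it was 0, and 1 on the authors' table (miR-34c) and 0 to 1 with 1 array left out; each of the 4 arrays of 4T1 with TGF-beta gave 1. In 4T1 it was 1, and 1 to 2 with 1 array left out; compliant inhibitor replicate 1, compliant TGF-beta replicate 2 and rigid TGF-beta replicate 2 of 4T1 gave 2. In 4T1 against 4TO7 the count of members called in either direction was 5 (1 higher and 4 lower in 4T1). It was 1 without normalization, 3 with the slide as a block and 3 to 6 with 1 array left out. There 8 arrays gave 3, namely 4T1 compliant inhibitor replicate 2, compliant TGF-beta replicate 2, rigid inhibitor replicate 1 and rigid TGF-beta replicate 2, and 4TO7 compliant inhibitor replicate 1, compliant TGF-beta replicate 2, rigid inhibitor replicate 2 and rigid TGF-beta replicate 1. For the response in 4T1 minus 4TO7 the count of members called was 1, and 0 without normalization and with the slide as a block, and 0 to 1 with 1 array left out. The 6 detected members stayed detected on all arrays at a detection p under 0.01.

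With the set number as a replicate block within lines, 2 members were called with TGF-beta in 67NR, miR-34b-5p and miR-34c (limma adjusted p = 0.015 and 0.019). In 4T1 2 were called, miR-34a and miR-34b-5p, the second at an adjusted p of 0.025. The share of all probes called in this fit is not given here. The call of miR-449a over all lines was lost with the block (0.061), and in 4T1 against 4TO7 that of miR-449a was lost (0.056) and miR-449b gained (0.020). The arrays share only a set number: differences between sets correlated over 365 probes at 0.23 to 0.49 between the groups of 4T1, at -0.16 to 0.38 in 4TO7 and at -0.09 to 0.28 in 67NR. Scaling also moved the share of calls that were higher over all probes with TGF-beta: it was 39.7% in 4T1 (34.8% to 72.4% under other scalings), 44.9% in 4TO7 (33.8% to 85.4%) and 30.0% in 67NR (5.13% to 57.4%), and in 4T1 against 4TO7 36.5% (25.6% to 87.9%). Without normalization the median of all probes with TGF-beta was 0.16 in 4T1, 0.18 in 4TO7 and -0.15 in 67NR, and the calls over all lines numbered 27 higher and 30 lower, against 78 and 66. Within slides the mean TGF-beta difference of miR-34a over 4 slide pairs was 0.20, none of them of 4T1. MiR-34b-3p had no signal above background to test.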
